A study of Mus musculus with 8 samples.

Results

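Histone H3 acetylated at lysine 56 (H3K56ac) was described at 10 immediate early genes of freshly isolated muscle stem cells (MuSCs): Fos, Fosb, Fosl1, Fosl2, Jun, Junb, Jund, Egr1, Egr2 and Atf3. For each gene, the peaks of the merged MuSC peak list that lay in the annotated gene or in the 30 kb on either side were collected. All 10 genes were found among the 21938 protein-coding genes of the annotation on the assembled chromosomes. Their windows held 86 of the 105600 peaks. The study profiled MuSCs of C57BL/6 mice in a Control group, which was wild type, and in a Sirt6mKO group, in which floxed Sirt6 alleles (Sirt6 fl/fl) were deleted by Pax7-ICNCre. This Cre is expressed from the Pax7 locus without induction, so that Sirt6 was lost in the whole muscle lineage and not at a chosen age. Each genotype had 2 H3K56ac libraries and 2 input libraries, and the peaks were given as a single merged list with no value per library. A difference between Control and Sirt6mKO could therefore not be measured, the values have no replicate error, the depth behind each peak is unknown, and all comparisons below are descriptions without a test.

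Immediate early genes are transcribed within minutes of a stimulus from factors that are already present in the cell, and their products then drive a second wave of transcription. The FOS and JUN families pair through leucine zippers to form AP-1, EGR proteins bind DNA through zinc fingers, and ATF3 is a stress-induced relative of the CREB family. Serum response factor, which binds the CArG box, and CREB, which binds the cAMP response element (CRE), are classical activators of such genes, and the digestion of muscle used to isolate MuSCs is known to induce several of them. H3K56 lies in the globular part of H3 near the entry of DNA into the nucleosome, and SIRT6 is a deacetylase of this residue.

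The cells were sorted by surface markers or a Pax7 reporter, and the list carried the marks of that sort. Of 8 MuSC marker genes, all 8 had a peak within 1 kb of a transcription start site (TSS), with a median width of 17479 bp. Of all protein-coding genes, 64.3% had such a TSS peak. It was found at 1 of 4 endothelial markers (Kdr, 1139 bp) and 1 of 4 immune markers (Csf1r, 229 bp). It was also found at 1 of 4 markers of mature myofibres (Myh4, 1024 bp) and 1 of 4 genes of other organs (Ins2, 1655 bp). Fibro-adipogenic markers were the exception, with a TSS peak at 3 of 4 (Pdgfra, 4396 bp, Dcn, 5233 bp, and Dpt, 9775 bp) and none at Ly6a, which encodes the Sca1 antigen that the antibody sort gated out. A marker without a TSS peak could still hold peaks, as the endothelial gene Pecam1 had 14, which covered 27.5% of the gene. The part that cells of other types had in the peaks of the immediate early genes was not tested.

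Most of the short immediate early genes lay under peaks along nearly their full length. Fos, Jun and Junb were each covered to 100% by a single peak that ran past both ends of the gene. Egr1 was covered to 97.2%, Jund to 92.5% and Egr2 to 66.7%. The remaining genes were covered less, with 41.5% at Fosl2, 39.9% at Fosb, 28.0% at Fosl1 and 17.1% at Atf3. Thus 6 of 10 were covered to at least 50%, against 9.90% of all protein-coding genes, and 3 of 10 lay inside a single peak, against 1.68% of all. The median covered share was 79.6% for the 10 genes and 7.82% for all protein-coding genes.

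Gene length bears on these shares, because the annotated gene measured 1668 bp for Jund and 47744 bp for Atf3. Among genes of at most 20 kb, 14.7% were covered to at least 50%, and 6 of the 8 immediate early genes of that length were. When each gene was ranked among the protein-coding genes within 20% of its own length, all 10 were above the median covered share. The percentile was 98.5 for Junb, 97.7 for Egr1, 97.6 for Fos, 97.5 for Jun and 94.1 for Egr2. It was 92.7 for Fosl2, 83.3 for Fosb, 80.2 for Jund, 76.8 for Atf3 and 73.9 for Fosl1. Jund therefore ranked lower among genes of its length than among all genes, where it was at 97.5.

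**Figure D1:**
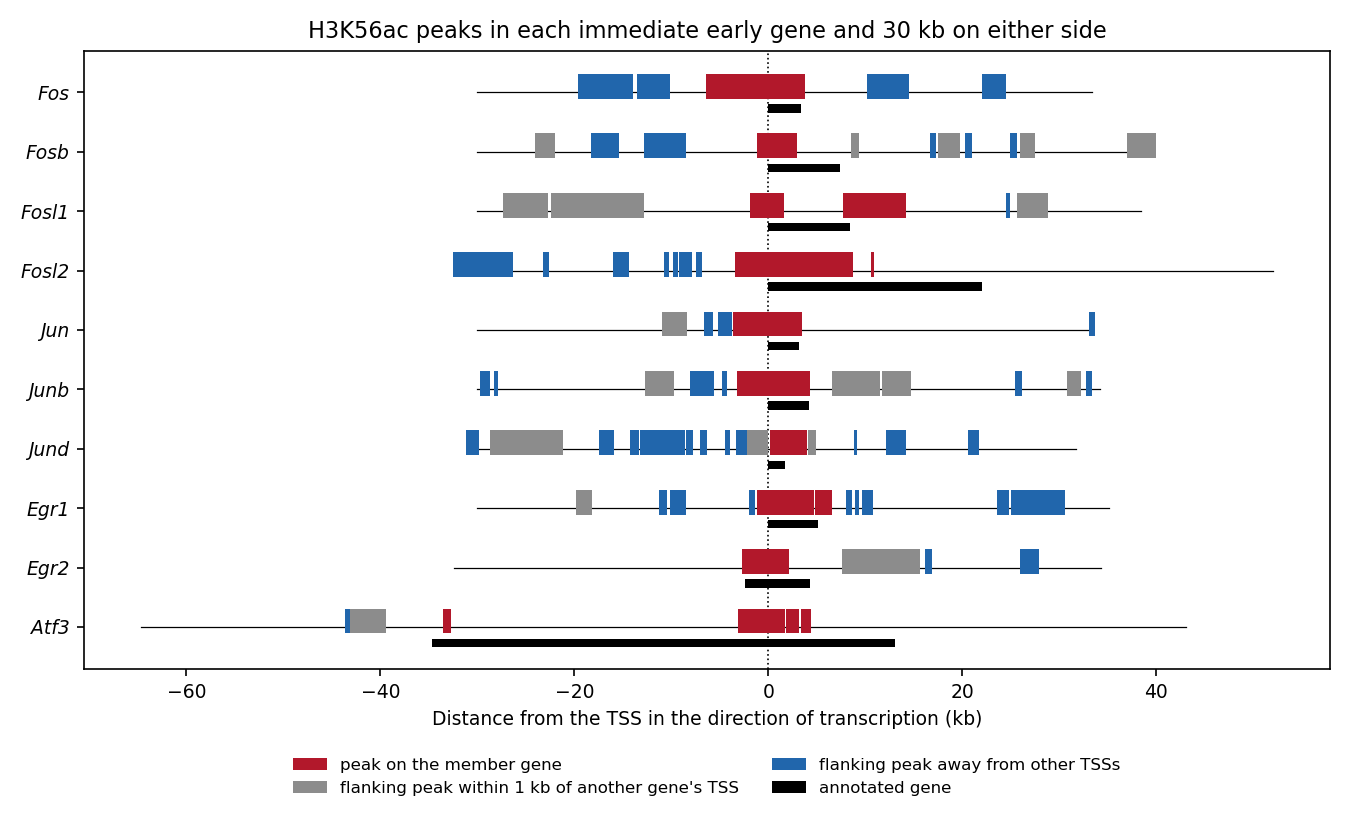
Each row shows the window of 1 immediate early gene, with distance from the TSS in kb in the direction of transcription on the horizontal axis. The black bar is the annotated gene, and the coloured bars are the 86 H3K56ac peaks to scale, 16 on the genes and 70 in the flanks. Fos is flanked by wide blue peaks on both sides, whereas the blue peaks of Fosl2 all lie upstream and Atf3 has 1.

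Every one of the 10 genes had a TSS peak, against 64.3% of all protein-coding genes, and in 9 of 10 a coding TSS base itself lay inside a peak, against 60.7%. The median TSS peak was 5379.5 bp wide, compared with 3389 bp among the 14099 protein-coding genes that had such a peak. Widths ranged from 3562 bp at Fosl1 to 12191 bp at Fosl2. TSS peaks of at least 5 kb were found at 5 of 10 (Fos, Fosl2, Jun, Junb and Egr1), against 15.0% of all protein-coding genes. Peaks of at least 10 kb were found at 2 of 10 (Fos and Fosl2), against 2.29%.

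Fos, which encodes the founding partner of JUN in AP-1, had the second widest TSS peak of the group. It measured 10198 bp, wider than 96.7% of TSS peaks, and the gene has only 3384 bp. The peak began 6431 bp before the TSS and ended 3766 bp after it, beyond the end of the gene. Most of it was thus upstream, and the next longest upstream reach, at Jun, was 3654 bp. The bases before the start are shown because 2 CRE cores and the TATA box of Fos fall there. In the sequence of the RefSeq promoter table (GRCm38.p6, chr12:85473760-85473889, plus strand), capitals mark the CRE core TGACG and the TATA box TATAAA.
Fos: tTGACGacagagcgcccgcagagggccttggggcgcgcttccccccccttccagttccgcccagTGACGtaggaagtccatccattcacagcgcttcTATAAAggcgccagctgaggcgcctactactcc
The CRE cores began at positions -129 and -66 from the start, and the TATA box at -33. These bases lay in no annotated exon, and all of them lay inside the TSS peak.

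No protein-coding gene other than Fos has a TSS within its window, and all 4 flanking peaks were away from any other annotated TSS. They lay at -19604 to -13998, -13568 to -10189, 10201 to 14515 and 22027 to 24507 bp from the TSS, and measured 5607, 3380, 4315 and 2481 bp. The first is the widest of the 51 flanking peaks of this kind around the 10 genes. Together with the TSS peak, they covered 51.4% of the upstream and 23.9% of the downstream flank of Fos. The TSS peak alone supplied 21.4 of the 51.4 percentage points upstream and 1.28 of the 23.9 downstream. Taken over both flanks, the share with the TSS peak included was higher than for 95.0% of protein-coding genes.

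Fosl2 encodes FRA-2, a FOS relative without the classical transactivation domain of FOS. Its TSS peak of 12191 bp was the widest of the group and exceeded 98.1% of TSS peaks. Unlike at Fos, most of it lay downstream, with 8738 bp after the TSS and 3452 bp before it, and it stopped well inside the gene of 22042 bp. A second peak of 410 bp lay within the gene. All 8 flanking peaks of Fosl2 were upstream, none of them near another TSS, and covered 41.6% of that flank together with the TSS peak. The downstream flank held none. The farthest pair, of 5234 and 948 bp, was separated by 1 bp, which shows how finely the merged list can split one region.

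Fosb and Fosl1 had the narrower TSS peaks of the FOS family. Fosb, whose product is best known from neurons, had a TSS peak of 4092 bp that reached 1157 bp upstream and 2934 bp downstream and left the end of the gene uncovered. Its window was crowded, with 11 flanking peaks, of which 6 were away from other TSSs. The wider of these lay upstream, with peaks of 3453 bp at -11965 to -8513 and of 2966 bp at -18330 to -15365. Downstream peaks covered the TSSs of Rtn2 and Vasp.

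Fosl1, which encodes FRA-1, had a TSS peak of 3562 bp, near the median of genes with such a peak at the percentile 53.7. A second peak of 6520 bp touched the end of the gene and covered the TSSs of the neighbours Ccdc85b and Fibp, so that part of the 28.0% coverage of Fosl1 came from a peak shared with them. Its flanks were covered to 53.8% upstream and 31.7% downstream, a share exceeded by few protein-coding genes, with a percentile of 96.8. That coverage came mostly from neighbours, because peaks within 1 kb of the TSS of another gene took 47.4% of the upstream flank. A single peak of 462 bp was away from other TSSs. A high flank share thus had a different make-up at Fosl1 and at Fos.

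**Figure D2:**
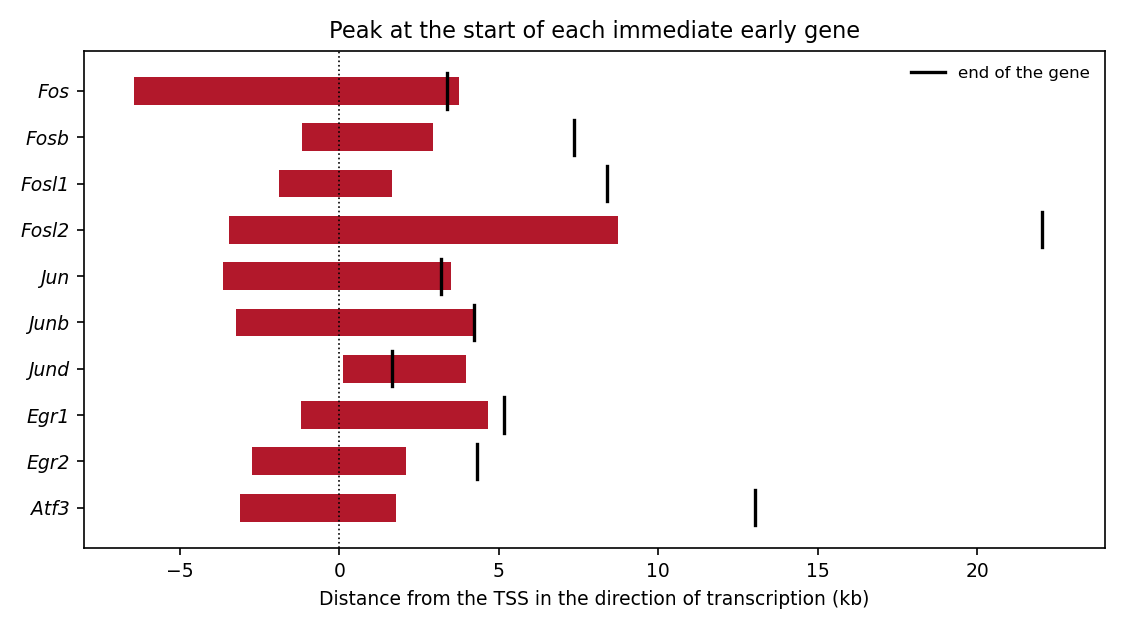
Bars span the TSS peak of each immediate early gene, plotted as distance from the TSS in kb, and black ticks mark the end of the annotated gene. The bars of Fos, Jun, Junb and Jund pass the tick, the bar of Fosl2 is the longest at 12191 bp, and the bar of Jund begins 125 bp after the TSS.

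In the JUN family, a single peak spanned the whole gene at Jun and at Junb, whereas the start of Jund fell between peaks. Jun, the main partner of FOS proteins, had a TSS peak of 7145 bp with 3654 bp before and 3490 bp after the TSS, close to symmetric. It also covered the start of Junos, a noncoding gene on the opposite strand. Gaps of 63 and 473 bp set it apart from peaks of 1475 and 965 bp upstream, and joining peaks less than 1 kb apart gave 10121 bp. Downstream, only 1.3% of the flank was covered, and there was 1 peak of 574 bp at the far edge of the window.

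Junb encodes the JUN protein often described as a restraint on JUN activity. It lay inside a peak of 7521 bp that ran from 3252 bp before the TSS to 4268 bp after it, where the gene of 4235 bp ends. Flank coverage was 35.3% upstream and 36.0% downstream. The downstream part lay mainly at neighbours, in a peak of 5032 bp over the TSSs of Prdx2, Gm49661 and Rnaseh2a and one of 3013 bp over Rnaseh2a. Upstream, a peak of 2470 bp at -8093 to -5624 was away from every TSS and lay in no annotated gene.

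Sequence of both Junb regions is shown, because the second held the closest run of AP-1 sites in the flanking peaks away from other TSSs, searched at 9 of the genes. The promoter bases (RefSeq table, GRCm38.p6, chr8:84978749-84978878, minus strand) carried 1 CRE core, in capitals. The upstream peak held 3 matches to the AP-1 site TGACTCA in 125 bases (GRCm38, chr8:84985645-84985769, plus strand), in capitals and on the opposite strand, so that they read TGAGTCA.
Junb promoter: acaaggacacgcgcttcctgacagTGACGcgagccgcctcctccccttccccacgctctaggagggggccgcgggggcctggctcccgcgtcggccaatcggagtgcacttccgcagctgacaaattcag
Junb upstream peak: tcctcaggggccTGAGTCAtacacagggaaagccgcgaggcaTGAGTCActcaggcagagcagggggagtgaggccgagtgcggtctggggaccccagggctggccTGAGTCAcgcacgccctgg
Starts of neighbouring matches were 30 and 64 bp apart. Of the 51 flanking peaks away from other TSSs, 13 held the AP-1 motif TGANTCA, against 31.7% of the 81116 peaks of the list that were away from every TSS. The form TGACTCA was held by 10 of the 51 on either strand, against 21.8%. The CArG box was found in 2 of the 51, both at Fos, against 6.67%.

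Jund, the JUN family member that is broadly expressed and least dependent on stimuli, was the only gene of the group with no annotated coding start inside a peak. The single annotated TSS fell in a gap of 183 bp between a peak of 2111 bp, which ended at -59 bp, and a peak of 3863 bp, which began 125 bp after it. The gap had a GC content of 78.1%. An antisense gene, Gm11175, lies within Jund. In the RefSeq table the Jund start lies further upstream, and all 300 bases of that window were inside a peak. Joining peaks less than 1 kb apart gave a domain of 9434 bp from 5 peaks. Upstream the flank was covered to 66.8%, the highest share of any flank in the group, with 10 peaks, 8 of them away from other TSSs. The 10 include the peak that ended at -59 bp, which lay within 1 kb of the start of Gm11175. Among the 8, the peaks at -4488 to -3979 and -3375 to -2177 belong to the joined domain of 9434 bp. The flank values of Jund thus partly count the domain at its own start. The widest of the 8 measured 4650 bp at -13229 to -8580, and a peak of 7508 bp further out covered the TSS of Lsm4.

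Of the zinc finger genes, Egr1 was covered almost throughout and Egr2 in its first part. The TSS peak of Egr1, the EGR factor most used as a marker of recent stimulation, measured 5882 bp and reached from 1214 bp before the TSS to 4667 bp after it. A second peak of 1749 bp covered the end of the gene, with a gap of 144 bp between them. Egr1 had 9 flanking peaks away from other TSSs, more than 96.3% of protein-coding genes. The most distant group lay downstream at 23585 to 30564 bp, with peaks of 1272, 4758 and 818 bp. A peak of 1687 bp upstream covered the TSS of Reep2.

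Egr2, known for its part in myelination and in lymphocytes, had a TSS peak of 4836 bp. It spanned 2749 bp before and 2086 bp after the start of the main transcript and took in every annotated coding TSS of the gene. No flanking peak lay upstream. Downstream, a peak of 8048 bp over the TSS of Ado supplied 26.8 of the 35.7 percentage points covered, and peaks of 686 and 1971 bp were away from other TSSs. Egr2 was the only one of the 8 genes in the promoter table with a CArG box in its windows. Both boxes are shown, at an alternative start (chr10:67537436-67537565) and at the start of the main transcript (chr10:67537792-67537868), on the plus strand of GRCm38.p6. Capitals mark the CArG box, which is CC, 6 bases that are A or T, and GG, and the CRE core on the opposite strand, CGTCA.
Egr2 alternative start: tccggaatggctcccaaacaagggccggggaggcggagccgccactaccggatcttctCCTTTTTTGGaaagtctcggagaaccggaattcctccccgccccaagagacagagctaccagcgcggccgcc
Egr2 main start: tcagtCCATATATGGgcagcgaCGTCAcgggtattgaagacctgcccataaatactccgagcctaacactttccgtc
Each box began at position -72 from its start. At the main start, the CRE core followed at -55. The first 30 bases printed for the main start also belong to an exon of the alternative transcript in RefSeq.

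Atf3, a repressor and activator induced by many stresses, had the lowest covered share of the group and the longest gene. Its TSS peak of 4877 bp lay at the inner start, from 3113 bp before to 1763 bp after it, and peaks of 1423 and 1008 bp followed in the gene. The start of the long transcript was not covered, and the nearest peak in the gene, of 867 bp, lay more than 1 kb from it. The flanks were the barest of the 10, with 13.8% upstream and 0% downstream and a percentile of 44.9. A single flanking peak of 504 bp was away from other TSSs. The promoter bases of the inner start (GRCm38.p6, chr1:191183334-191183463, minus strand) are shown because the CRE core, in capitals on the opposite strand, nearly abuts the start, at position -7.
Atf3: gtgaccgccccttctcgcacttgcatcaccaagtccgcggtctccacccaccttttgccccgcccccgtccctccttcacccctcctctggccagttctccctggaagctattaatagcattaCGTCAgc

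The RefSeq table held promoter windows, 250 bases before to 50 bases after a start, for 8 of the 10 genes, and not for Fosl1 and Egr1. All 12 windows of these genes, of which Egr2 has 5, lay wholly inside peaks, against 55.0% of the 20150 windows of coding genes in the table. The CRE core TGACG, searched on both strands, was present at 5 of 8 (Fos, Fosb, Junb, Egr2 and Atf3), against 26.9% of the 16522 coding genes in the table. The full CRE TGACGTCA, which contains this core, was present at 0 of 8, against 2.64%. For Jund the window lies upstream of the GENCODE start, which itself fell in a gap between peaks. The peak that ended at -59 bp from that GENCODE start held 1 full CRE. The AP-1 motif TGANTCA was likewise present at 0 of 8, against 8.15%, as was its form TGACTCA, against 5.40%. The CArG box was present at 1 of 8 (Egr2), against 1.75%, and TATAAA at 2 of 8 (Fos and Junb), against 14.3%. At Junb the TATAAA began at the RefSeq start itself. These matches are letters in a fixed window. Over the whole TSS peak, which reaches farther, the CArG box matched 5 times at Egr1, 2 times each at Junb and Egr2, and once each at Fos, Fosb and Fosl2, with 0 matches at the other 4 genes. Of peaks away from every TSS and within 10% of the width of these TSS peaks, the share with a CArG box was between 16.7% for the width of Fosl1 and 49.0% for that of Fosl2.

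Across the group, flanking regions were covered more than is usual, but the kind of peak differed from gene to gene. The median share of both flanks under peaks was 28.2%, against 8.585% for all protein-coding genes and 13.6% for those with a TSS peak. Of the 10 genes, 9 exceeded 8.585%, with Atf3 below it. These shares include the part of a gene's own peaks that runs into the flank, which was 21.4% of the upstream flank at Fos. Of the 70 flanking peaks, 19 lay within 1 kb of the TSS of another gene, with a median width of 2924 bp, and 51 lay away from other TSSs, with a median of 948 bp and a range of 329 to 5607 bp. All 10 genes had at least 1 of the latter, against 62.7% of all protein-coding genes and 80.3% of those with a TSS peak. The count was 8 of 10 with peaks less than 1 kb apart joined and 8 of 10 with 10 kb flanks. It was 9 of 10 without peaks under 500 bp. The share of all protein-coding genes at these settings is not given, so these counts have no background beside them. Only 11 of these 51 peaks reached 2 kb. More of the upstream than of the downstream flank was covered at 7 of 10, the exceptions being Junb, Egr1 and Egr2.

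Measured in bases away from other TSSs, the order of the genes changed. Fos had 15783 bp in such peaks, Jund 15111 bp, Egr1 12136 bp and Fosl2 11529 bp, with percentiles of 97.7, 97.4, 95.5 and 95.0 among protein-coding genes. Fosb had 9301 bp, Junb 5693 bp, Jun 3014 bp and Egr2 2657 bp. At the low end were Atf3 with 504 bp and Fosl1 with 462 bp, below the median of 1026 bp for all genes. In the list as given, the width of the TSS peak and these flanking bases did not always go together. Jun had a TSS peak of 7145 bp and a percentile of 70.7 for these bases, and Jund had 3863 bp and 97.4. With peaks less than 1 kb apart joined, the TSS peak measured 10121 bp at Jun and 9434 bp at Jund, so that most of this contrast in width was lost. Part of the 15111 bp at Jund lay in that joined domain.

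**Figure D3:**
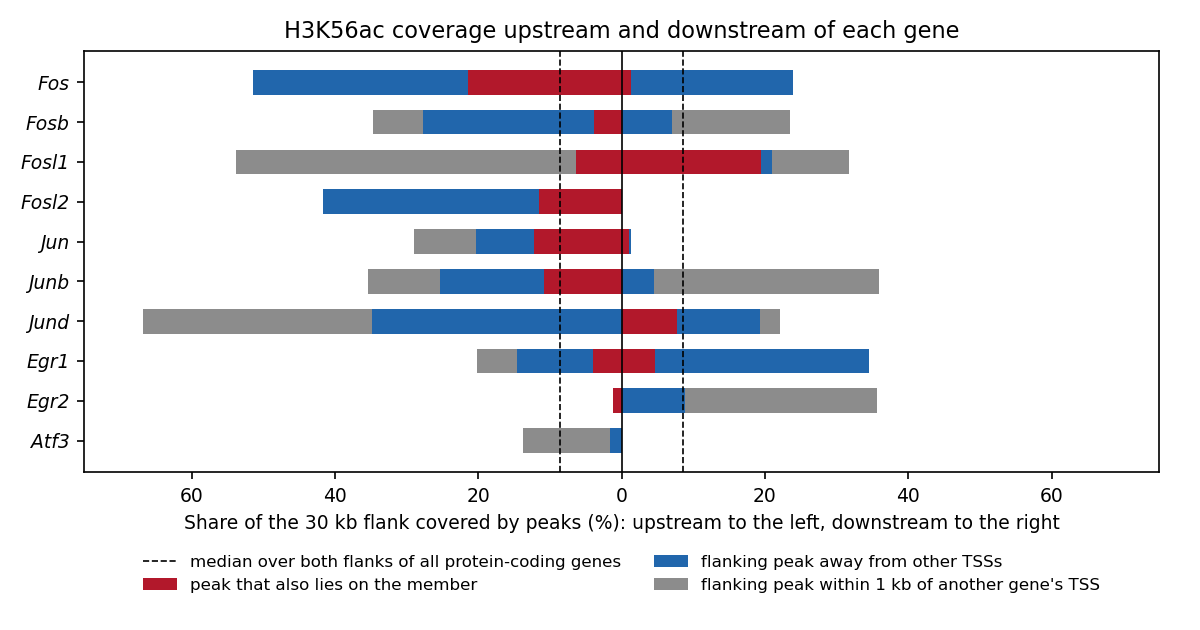
Stacked bars give the percentage of the 30 kb flank covered by peaks, upstream to the left and downstream to the right. Red is a peak that also lies on the gene, blue a peak away from other TSSs and grey a peak within 1 kb of another gene's TSS, and dashed lines mark the all-gene median of 8.585%. Grey fills most of the left-hand bar of Fosl1 and of the right-hand bars of Junb and Egr2. The right-hand bar of Fosl1 is mostly red, and the bars of Fos and Fosl2 hold no grey.

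Related genes were described in the same way. Of 22 other immediate early and dissociation response genes, 21 had a TSS peak, 14 were covered to at least 50% and 4 lay inside a single peak (Zfp36, Ier2, Klf6 and Ier3). The shares of all protein-coding genes were 64.3%, 9.90% and 1.68%. Their median covered share was 67.2% and their median flank share 27.2%, both near the values of the 10 genes, whereas their median TSS peak was narrower at 4159 bp. Klf6 had the widest TSS peak of that list, at 10918 bp, followed by Dusp1 at 10567 bp. The remaining EGR paralogs differed from Egr1 and from each other. Egr3 was covered to 36.4% with a TSS peak of 5331 bp and 11 flanking peaks, and Egr4 had no peak in the gene, no TSS peak and 1 flanking peak. The neuronal gene Arc had a TSS peak of 1931 bp and 0 flanking peaks. Its coverage of 28.7% was at the percentile 79.2 among all protein-coding genes. Coverage thus differed among immediate early genes in this list, with none at Egr4.

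The bZIP partners and paralogs of the group, 17 genes, had a median TSS peak of 6006 bp, but their median covered share was 27.2%, with a median gene length of 31494 bp. TSS peaks were found at 16 of 17, the exception being Batf, against 64.3% of all protein-coding genes. A TSS peak of at least 5 kb was found at 9 of 17, against 15.0% of all and 23.3% of those with a TSS peak. Creb5, at 21960 bp, had the widest. Atf4 lay inside a single peak of 6006 bp. The lowest share was 3.65% at Atf2.

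Among 13 genes that act upstream of the group, all 13 had a TSS peak, with a median of 4159 bp. These were serum response factor, its cofactors and the kinases of the ERK, JNK and p38 pathways. Peaks of at least 5 kb were found at 3 of 13, namely Mapk14 (11489 bp), Srf (8139 bp) and Elk4 (7301 bp). Covered to at least 50% were 2 of 13, Srf with 67.2% and Mapk3 with 66.9%, and the lowest was Rps6ka1 with 2.55%. Both counts were near the shares of protein-coding genes with a TSS peak, which were 23.3% and 15.2%. Among all protein-coding genes the shares were 15.0% and 9.90%. The median gene length of this list was 57078 bp. Srf is itself an immediate early gene in many cells.

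**Figure D4:**
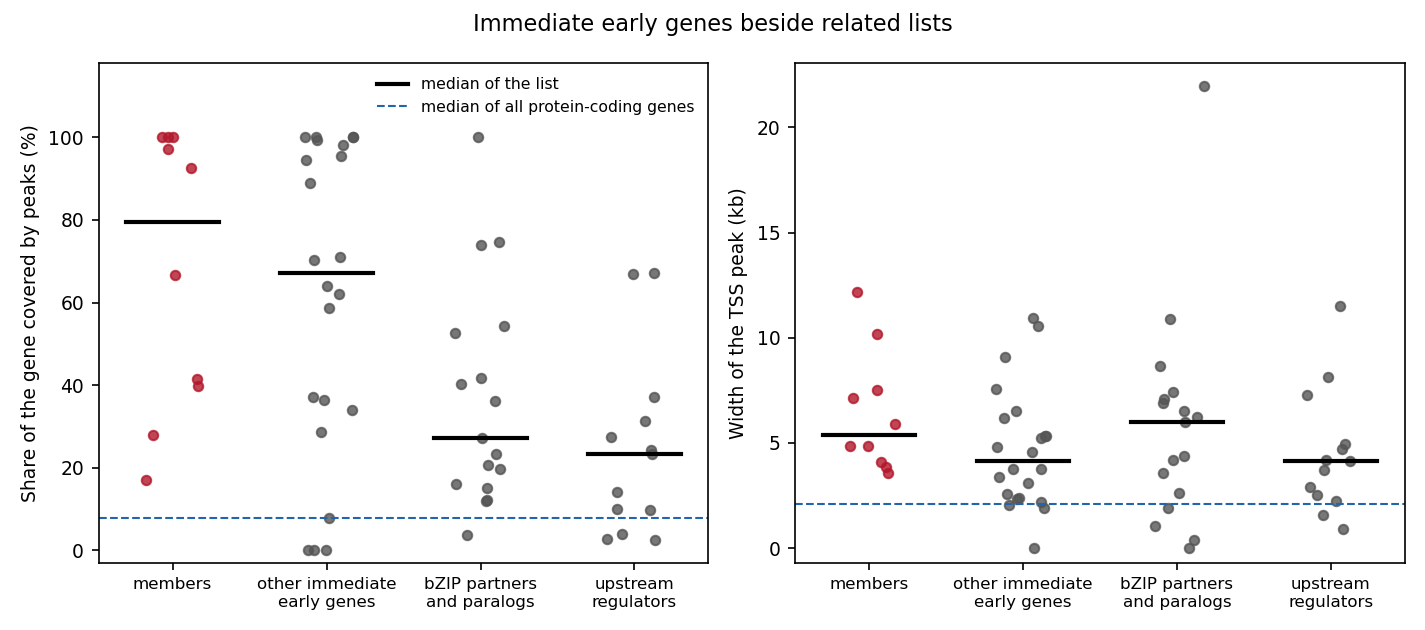
Points are single genes of the 10 immediate early genes (red) and of the related lists (grey), with the covered share of the gene in percent on the left and the width of the TSS peak in kb on the right. Black bars are list medians and the dashed line the median of all protein-coding genes, 7.82% and 2095 bp with genes lacking a TSS peak set at 0. The median covered share of the 10 genes, 79.6%, falls in the space between Egr2 at 66.7% and Jund at 92.5%. The bZIP list has the higher median TSS peak of 6006 bp.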

How the data were processed

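H3K56ac ChIP-seq libraries and inputs had been made from sorted MuSCs. Per the methods, the authors trimmed reads with Trim Galore, used bowtie to place on mm10 those with one alignment only, which lowers coverage in repeated sequence, dropped duplicates with Picard, called peaks with MACS2 at its default settings and a q-value threshold, removed blacklisted regions and merged overlapping peaks with GenomicRanges, which widens them. Which libraries were merged is not given in the sources used here. The deposited list holds the positions of 105600 intervals, a score of 0 in every row and 0 columns per sample.

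Covered share, TSS peak (the widest within 1 kb of a coding TSS) and flanking peaks were computed for 21938 protein-coding genes of GENCODE vM21 (GRCm38, the same build as mm10) with Python 3.11.15, numpy 2.4.6 and pandas 2.3.3, and tested on simulated data. Distances refer to the first-numbered GENCODE transcript, and width percentiles to genes with a TSS peak. The members and lists were chosen with earlier results of these data known. Named were all members, the extremes of each list, Egr3, Egr4, neighbours whose TSS a peak covered and genes behind counts of 5 or fewer. Any others were chosen after their values were seen. Alternatives joined near peaks, dropped peaks under 500 bp, and changed flanks, TSS rules and background genes. One result on a related list is not reported here.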

Additional observations from a re-analysis of the deposited data

How the results depend on the processing

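With no replicates, a value was taken as moved when it changed by more than 1.5-fold. Of 53 values recomputed for the group under the alternatives, 44 did not move and 9 did. Of 110 values of single genes, 78 did not move and 32 did. Jund lost its TSS peak when the TSS base had to be covered, and Atf3 when only the outermost gene start counted. Fosl1 had 0 flanking peaks with 10 kb flanks, in place of 4. Joining peaks less than 1 kb apart put 5 genes in place of 3 inside a single peak and lowered the median number of flanking peaks from 6 to 3.5, and of those away from other TSSs from 5 to 2.5. These medians were 3 and 2 with 10 kb flanks, and 21 and 15 with 100 kb flanks. Among coding genes with a TSS peak, 15.2% were covered to at least 50% and 23.3% had a TSS peak of at least 5 kb. The AP-1 form TGACTCA was added after seeing the data. Peaks under 500 bp, TSS rules and the length window moved none of the group values. No paired analysis was possible because no interval names a replicate. The list has no strength, so a peak just over the caller's threshold counts like any other, and unknown depth limits what the absence of a peak can show.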

Other observations

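Hspa1a and Hspa1b, the inducible HSP70 genes that respond to cell dissociation, were the exceptions among the dissociation response genes in having a TSS peak but no peak over the gene. The TSS peak measured 2205 bp at Hspa1a and 2583 bp at Hspa1b, while 0% of either gene was covered. Of the 2918 words of 50 bases in Hspa1a, 58.8% also occur in Hspa1b. A read that lies wholly in shared sequence has more than one alignment, and such reads were not kept by the authors. How many reads were lost in this way was not measured. The part of such a loss in the empty gene bodies was not tested.

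Socs3 and Btg2, a feedback inhibitor of cytokine signalling and an antiproliferative gene, had the most flanking peaks of the same list. Socs3 had 23, of which 22 were away from other TSSs, and Btg2 had 19, of which 18 were. The flanks were covered to 70.4% at Socs3 and 50.6% at Btg2, above the 44.5% of Jund, the highest of the 10 genes. Dusp1, which encodes a MAP kinase phosphatase, had 83.2%, with an annotated gene of 56539 bp. These genes were chosen after their values were seen.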
